A study of Caenorhabditis elegans with 15 samples.

Results

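The worms kept in 2 mg/mL of the procyanidin-enriched fraction H3 were compared with the worms kept in 0.2 mg/mL of it, the upper concentration step of the study. The comparison rests on 6 of the 15 arrays, 3 titled H3 2 and 3 titled H3 0.2, and covers all 29317 probe sets of the array. All groups were young adult wild-type worms (strain N2), kept for 6 h at 20 °C in M9 buffer with DMSO as the solubiliser, and RNA was taken from whole worms. Fraction H3 holds a mixture of oligomeric procyanidins from leaves of Combretum mucronatum, a plant used against worms in West Africa. The other groups, each of 3 arrays, were a DMSO control, H3 at 0.02 mg/mL (H3 0.02) and the crude hydroethanolic extract (RE), whose concentration the labels give once as 0.2 and once as 2 mg/mL. The study's methods give 0.2 mg/mL for RE. They also describe 2 mg/mL of H3 as lethal to part of the worms after 6 h. Before treatment, worms were washed to remove bacteria. Whether dead or dying worms contributed to the H3 2 values was not tested. The fraction is a mixture and the worms were analysed whole, so that the values cannot be assigned to 1 compound or to 1 tissue, and more RNA per cell cannot be told apart from more cells of a type.

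Procyanidins are condensed tannins, chains of flavan-3-ol units that bind proteins and in particular proline-rich proteins. In a worm they first meet the cuticle, a sheath of collagens, and the lumen of pharynx and gut. The nematode gut is the site of digestion by cathepsin-type peptidases and lysozymes and of much of the detoxification by cytochromes P450, transferases and export pumps. Comparing 2 concentrations of 1 fraction asks which genes still followed the dose once the response was under way.

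The groups were spread unevenly over 2 sets of arrays. On the first principal component (52% of the variance), the first 8 arrays in the study's numbering scored 36.8 to 51.2 and the last 7 scored −71.4 to −34.9. They are called early and late arrays here. The place of this cut was read from the values themselves, and the labels do not say how the sets differ. H3 2 had 2 early arrays and 1 late array, whereas H3 0.2 had 1 early array and 2 late ones. A plain difference between the groups therefore carries part of the difference between the sets. The fit used here includes the array set as a term, and differences are also given within the early arrays (2 of H3 2 against 1 of H3 0.2) and within the late arrays (1 against 2). H3 0.2 replicate 3 left the largest residual of the 15 arrays in this fit (root mean square 0.252, others 0.178 to 0.233 on the log2 scale). With 3 arrays a group precision was limited: the median distance from a log2 difference to the end of its 95% interval was 0.36.

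Few genes could be told apart between the concentrations. With limma, 2 of 29317 probe sets passed the test, both higher at H3 2 (0.00682% of all). A probe set passed with a 2-fold or larger difference and a p of 0.05 or less after Benjamini-Hochberg adjustment. Without the array set, the model of the study's methods called 0 probe sets (0 of 29317, smallest adjusted p 0.111, 1216 at an unadjusted p under 0.05), and the least significant difference test that the methods name also called 0 (1331 at an unadjusted p under 0.05). At an unadjusted p under 0.05 with the set term, 909 probe sets (3.1%) were higher and 1048 (3.57%) lower. The median log2 difference over all probe sets was 0.00, and 40 probe sets were at least 2-fold higher and 126 at least 2-fold lower at H3 2 in the fit.

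**Figure D1:**
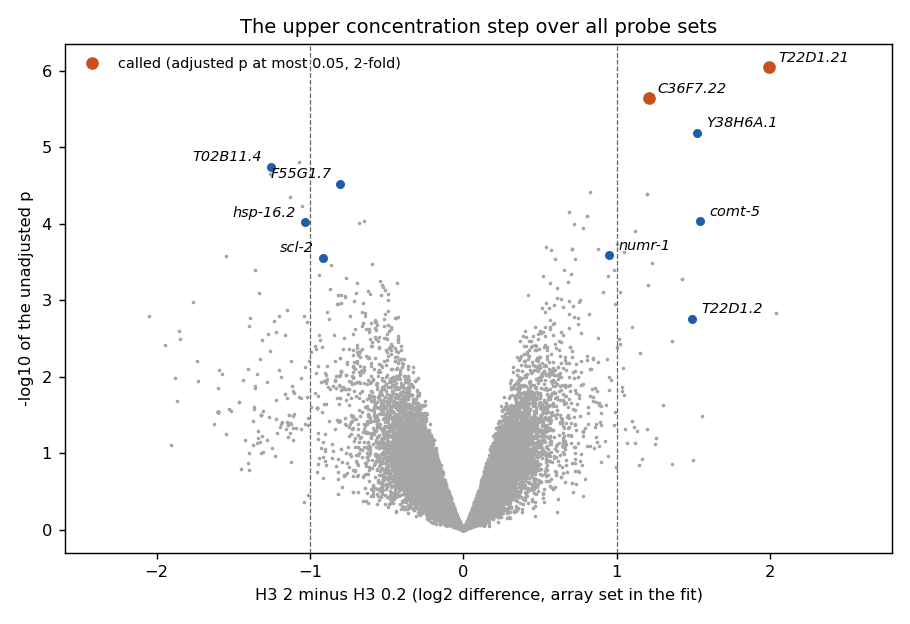
Each point is 1 of 29317 probe sets, with the log2 difference between H3 2 and H3 0.2 on the horizontal axis and −log10 of the unadjusted limma p on the vertical axis. Orange points are the 2 probe sets that passed the test, blue points are other genes named in the text, and dashed lines mark a 2-fold difference.

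T22D1.21, a noncoding RNA of 1 probe set, rose with the upper step. It is annotated on chromosome IV at 6921836 to 6921946 (WBcel235). The arrays of H3 2 gave log2 values of 10.32, 10.50 and 9.84, and those of H3 0.2 gave 8.72, 7.97 and 7.24. The groups did not overlap, and the highest array of H3 0.2 was its early one. The difference was 2.00 (95% interval 1.5 to 2.49, adjusted p = 0.0264 by limma), or 3.99-fold. It was 1.69 within the early arrays and 2.23 within the late arrays. The mean was 3.96 ± 0.43 in the control and 5.13 ± 0.59 at H3 0.02 (SD, n = 3 each), so that the level stood higher at each concentration.

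T22D1.2 encodes a protein with a predicted signal peptide and repeats rich in proline. Its values were 12.48, 12.54 and 12.18 at H3 2 and 11.23, 10.71 and 10.05 at H3 0.2, without overlap. The difference of 1.49 (95% interval 0.67 to 2.31) did not pass the test over all probe sets (adjusted p = 0.45). Within the early arrays it was 1.28 and within the late arrays 1.8. The control lay at 2.52 ± 0.26 and H3 0.02 at 7.02 ± 1.27 (SD, n = 3 each), and RE at a mean of 12.01. The array set term of this gene was −0.73 (late minus early). Whether the probe sets of T22D1.21 and T22D1.2 share signal was not tested.

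C36F7.22, also a noncoding RNA (chromosome I, 9549252 to 9549400, WBcel235), was the other probe set that rose. It gave 4.82, 5.05 and 4.78 at H3 2 and 3.81, 3.65 and 3.42 at H3 0.2, again with the groups apart. The difference was 1.2 (95% interval 0.88 to 1.54, adjusted p = 0.0339 by limma), or 2.31-fold, with 1.13 within the early and 1.24 within the late arrays. The array medians of all probe sets were 3.54 to 3.65, so that H3 0.2 (3.63 ± 0.20), H3 0.02 (3.07 ± 0.16) and the control (3.06 ± 0.24, SD, n = 3 each) stood near or under them, and no test of signal over background could be made. RE had a mean of 4.58.

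Both calls rest on small margins. The difference of T22D1.21 stayed between 1.69 and 2.24 under the 29 other settings and that of C36F7.22 between 1.13 and 1.28 under the 28 it could be fitted in, whereas the adjusted p ran from 0.00766 to 1 and from 0.0245 to 1. Leaving out 1 array at a time, T22D1.21 was called in 10 of 15 fits and C36F7.22 in 5 of 15. The call of T22D1.21 ended without any of the H3 2 arrays, without H3 0.2 replicate 1 or without RE replicate 1. The call of C36F7.22 ended without any of the 6 arrays compared, without any of the RE arrays but replicate 3, without H3 0.02 replicate 1 or without control replicate 1.

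**Figure D2:**
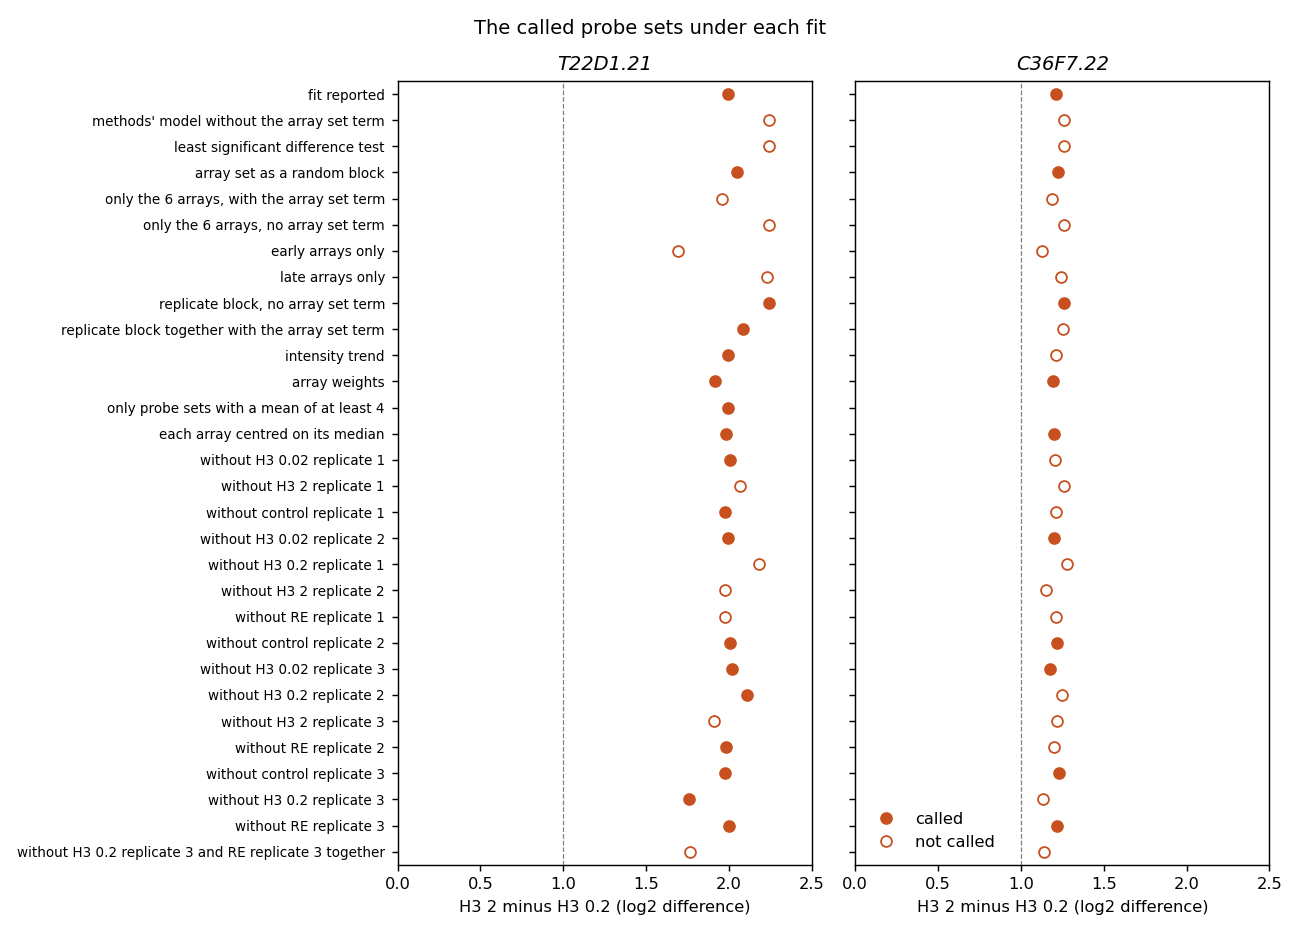
The log2 difference between H3 2 and H3 0.2 of both called probe sets (horizontal axis) under the fit reported and each other setting (rows), with filled points where the probe set was called and open points where it was not. The dashed line marks 2-fold, and all differences of T22D1.21 lie between 1.69 and 2.24 and all of C36F7.22 between 1.13 and 1.28.

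Among probe sets of 1 gene with the same direction in both array sets, the 12 with the highest t were 1.58 to 3.99 times higher at H3 2, with adjusted p between 0.0264 and 0.289. Of these 12, 11 had groups that did not overlap, against 3.63% of all probe sets in this direction; they were chosen for this contrast, so that the count is a description. Beside noncoding RNAs they held Y38H6A.1, comt-5, numr-1, W03G1.5 and F53A9.7. Y38H6A.1 had 6.55, 5.86 and 6.35 at H3 2 against 4.58, 5.14 and 4.56 at H3 0.2. Its difference of 1.53 (SE 0.209) had an adjusted p of 0.0633. comt-5 encodes a catechol-O-methyltransferase-like enzyme, of a family that methylates catechol groups such as those of flavanols in mammals. Its values were 6.07, 5.49 and 6.12 against 4.21, 4.64 and 4.28, a difference of 1.54 (SE 0.276, adjusted p = 0.148). In both genes every array of H3 2 lay above every array of H3 0.2, in the early as in the late set.

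numr-1 encodes a nuclear protein that responds to metals. It had 9.65, 9.53 and 8.95 at H3 2 and 8.73, 7.83 and 7.98 at H3 0.2, a difference of 0.95 (SE 0.190, adjusted p = 0.241). Its array set term was −0.74 (late minus early), and the difference was 0.86 within the early and 1.05 within the late arrays. Its mean had already gone from 3.78 ± 0.32 in the control to 7.54 ± 0.71 at H3 0.02. W03G1.5, an uncharacterised gene, differed by 0.73 (SE 0.148, adjusted p = 0.244). F53A9.7 differed by 0.98 (SE 0.207, adjusted p = 0.289), and here 1 array of H3 0.2 (8.51) lay above the lowest of H3 2 (8.20).

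**Figure D3:**
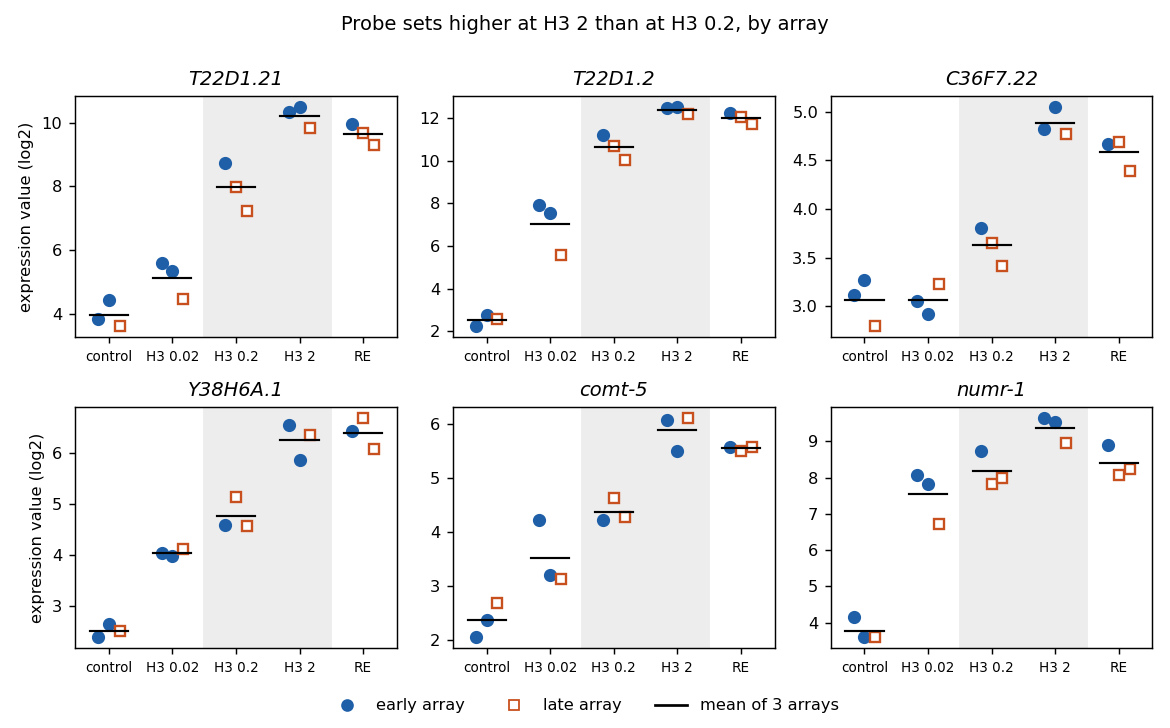
Log2 expression values of 6 genes on each of the 15 arrays (points) with group means (lines), by group on the horizontal axis; filled circles are early arrays, open squares late ones, and the shaded groups are those compared. In all 6 panels the H3 2 arrays lie above those of H3 0.2.

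Of the 12 probe sets with the highest t, 7 belong to genes annotated as noncoding RNA, and none of the 12 with the lowest t does. Both sets of 12 were chosen for this contrast, so that these counts are a description. The higher group also had to reach the median of all values, which C06G1.17 did only through H3 2. Noncoding RNAs made up 23.4% of the probe sets of 1 gene (5982) before that filter, so that this share is not a match for the counts. Over all of them, 275 (4.6%) were higher and 177 (2.96%) lower at an unadjusted p under 0.05, and for the 18847 protein-coding ones these shares were 2.62% and 3.1%. The median level of the noncoding ones was 2.34, below the array medians, against 4.81 for protein-coding genes. Among the 7, D1054.20, C06G1.17, C30D11.3 and C04C3.11 differed by 0.66 to 1.05. From the control up to H3 2, the means of C06G1.17 were 4.19 ± 0.39, 3.83 ± 0.037, 3.41 ± 0.069 and 4.45 ± 0.15 (SD, n = 3 each). Those of C30D11.3 were 4.18 ± 0.12, 4.02 ± 0.28, 3.66 ± 0.25 and 4.72 ± 0.21. In both the lowest mean of the 4 was that of H3 0.2. These are plain means without the array set term, and H3 0.2 alone of the 4 groups had more late than early arrays. Their adjusted p values for the upper step were 0.225 and 0.23.

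At the other end, the 12 probe sets with the lowest t were 1.45 to 2.57 times lower at H3 2, with adjusted p between 0.105 and 0.334, so that none passed the test. Groups did not overlap in 10 of the 12, against 3.64% of all probe sets in this direction. These 12 were likewise chosen for this contrast, so that the count is a description. T02B11.4 had the smallest adjusted p of these 12, with 5.14, 4.65 and 3.99 at H3 2 against 6.24, 5.29 and 5.38 at H3 0.2. Its difference was −1.26 (95% interval −1.67 to −0.85, adjusted p = 0.105), with −1.34 in the early and −1.35 in the late arrays. scl-2, a secreted SCP-like protein, had 10.55, 10.40 and 10.09 against 11.21, 11.06 and 11.20, a difference of −0.92 (SE 0.185, adjusted p = 0.244). cpr-1, a cathepsin B-like peptidase, had 8.42, 8.83 and 8.53 against 9.23, 9.34 and 9.61, a difference of −0.77 (SE 0.167, adjusted p = 0.326). The mean of cpr-1 was 10.95 ± 0.22 in the control and 9.91 ± 0.19 at H3 0.02, so that its means fall in the order of concentration.

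Some genes that were lower at H3 2 than at H3 0.2 stood at their highest plain mean in between. These means carry no array set term. H3 0.2 had 1 early and 2 late arrays, whereas the control, H3 0.02 and H3 2 each had 2 early and 1 late. The genes were also chosen by the upper step, and a peak at H3 0.2 was not tested. From the control up to H3 2, the means of F55G1.7 were 4.78 ± 0.24, 5.72 ± 0.21, 5.93 ± 0.28 and 5.03 ± 0.082 (SD, n = 3 each). Its upper step was −0.80 (SE 0.127, adjusted p = 0.12). zig-13, of a family of secreted immunoglobulin-domain proteins, had 2.69 ± 0.19, 3.20 ± 0.11, 3.87 ± 0.32 and 2.76 ± 0.12 in the same order, and an upper step of −1.05 (SE 0.179, adjusted p = 0.146). hsp-16.2, a small heat shock protein, had 1.95, 1.92 and 1.85 at H3 2 and 3.11, 2.45 and 3.19 at H3 0.2, with 1.79 ± 0.092 in the control. The groups were apart and the difference was −1.03 (SE 0.185, adjusted p = 0.148), and both groups lay below the array medians. C31G12.1 had the largest difference of the 12 lowest, −1.36 (SE 0.287, adjusted p = 0.289), with late arrays higher by 1.54. The others of the 12 were W10G11.1, W05F2.7, C08G9.1, T23B3.6, C27C12.1 and lys-1. lys-1, a lysozyme, is the gene among them that turns with the array set: its difference was −0.59 (SE 0.122) in the fit, −0.52 in the early and −0.67 in the late arrays, and 0.04 without the set term.

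**Figure D4:**
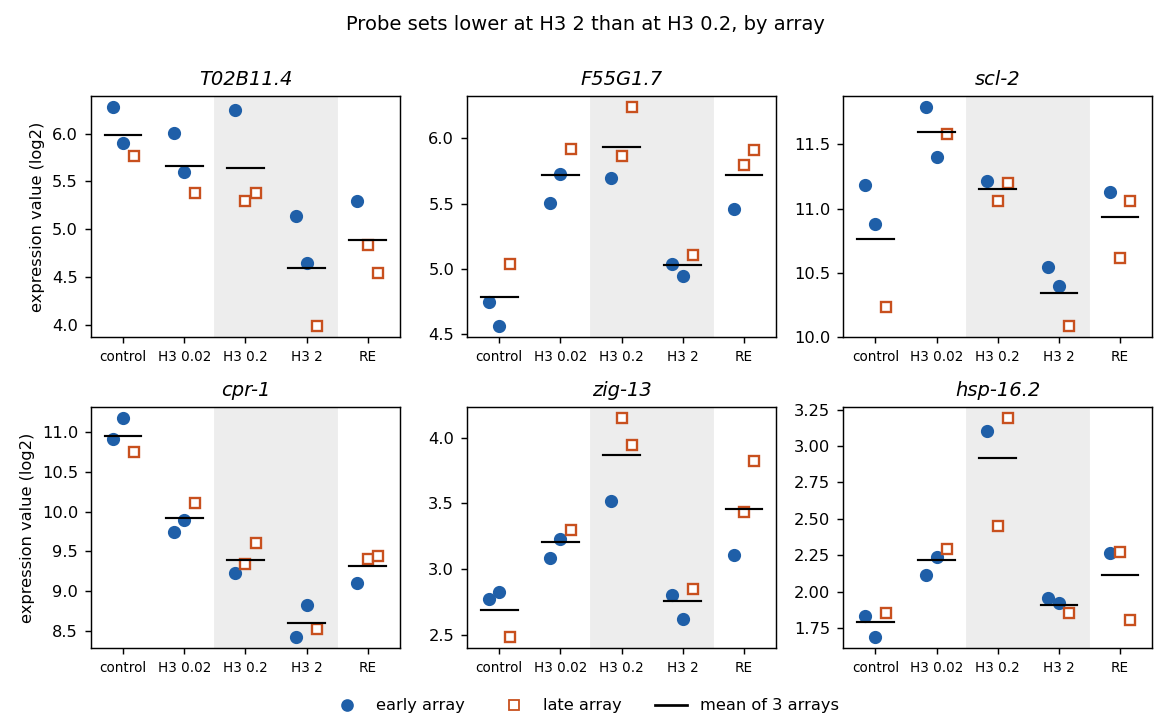
Log2 expression values of 6 genes on each of the 15 arrays (points) with group means (lines), by group on the horizontal axis; filled circles are early arrays, open squares late ones, and the shaded groups are those compared. In the 6 panels the H3 2 arrays lie below those of H3 0.2. For F55G1.7, zig-13 and hsp-16.2 the plain mean, without the array set term, is highest at H3 0.2 among the control and the H3 groups.

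The upper step was then read over probe sets chosen in contrasts of other groups. The 6 arrays still entered this choice through the shared estimate of each probe set's variance. For RE against the control they also entered through the shared array set term. At H3 0.02 against the control, 225 probe sets (0.767%) were called higher and 183 (0.624%) lower. Of the 225 higher ones, 63.6% had a positive upper step, and their median step was 0.10 (quartiles −0.10 and 0.29). Of these, 24 were higher at an unadjusted p under 0.05 and 8 lower. Of the 183 lower ones, 134 had a negative step and 49 a positive one, with a median of −0.18 (quartiles −0.38 and 0.01), and 26 were lower at an unadjusted p under 0.05 and 1 higher. Over all probe sets the median was 0.00, and 50.0% were above 0. The same probe sets had moved by a median of 1.5 and of −1.33 between the control and H3 0.02, the contrast they were chosen in.

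With RE against the control as the choice, 318 probe sets (1.08%) were called higher and 289 (0.986%) lower. Their median upper steps were 0.12 and −0.17, and 222 of 318 were positive and 206 of 289 negative. The median of the higher ones was 0.22 within the early arrays and 0.043 within the late arrays, and that of the lower ones −0.10 and −0.15. The first selection had 0.18 and 0.011 for the higher probe sets and −0.12 and −0.17 for the lower ones. Thus all medians were in the direction of the treatment, whereas those of the higher probe sets in the late arrays were close to 0. Without the set term and with the same probe sets, the medians of the higher ones were 0.39 and 0.44 and those of the lower ones −0.055 and −0.055.

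**Figure D5:**
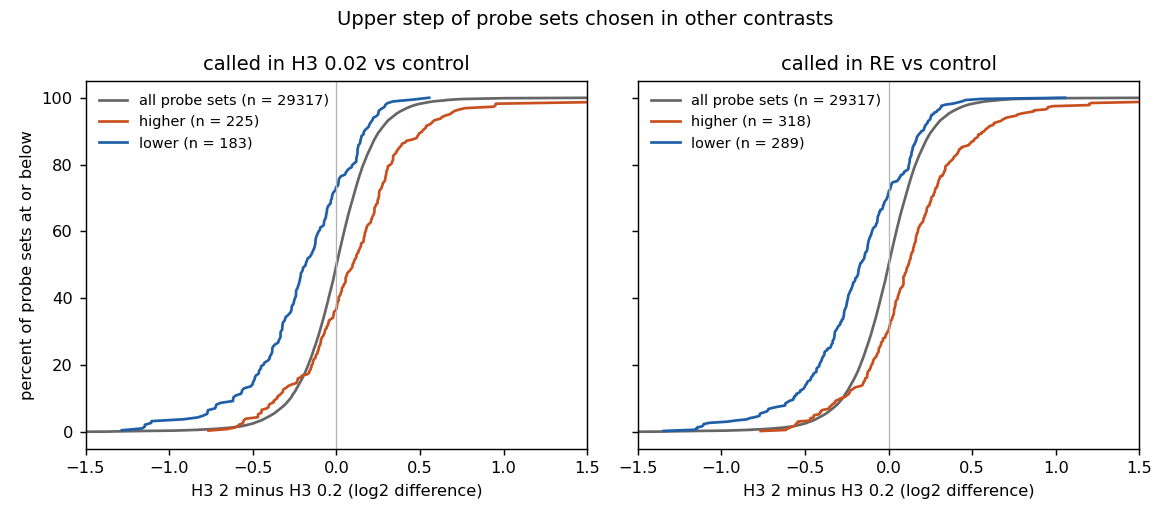
Percent of probe sets (vertical axis) with a log2 difference between H3 2 and H3 0.2 at or below the value on the horizontal axis, for probe sets called higher or lower at H3 0.02 (left) and for RE (right) against the control, and for all probe sets. At the level of 50% the curves of the higher ones lie right of that of all probe sets and those of the lower ones left of it, with medians between −0.18 and 0.12; on the far left the curves of the higher ones cross it.

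Some further genes come from the study's table of genes changed in all treated groups, which was made from these arrays, so that they are described only. They were picked from that table by hand, with results known, and no count over them is given. All of those described moved further from the control at the upper step. Some other genes that the study names from that table did not. Among genes raised over the control, ilys-2 differed by −0.12 and gst-24 by −0.092. Among lowered ones, ugt-44 differed by 0.012, spp-1 by 0.15, and clec-4 and dod-17 by 0.16 each. srlf-13 (F13E9.4 in the study) had 8.93, 8.71 and 8.29 at H3 2 against 7.65, 7.47 and 7.68 at H3 0.2, a difference of 0.94 (SE 0.203, adjusted p = 0.319). K01A6.8 had 8.30, 8.22 and 8.21 against 7.84, 7.82 and 7.89, a difference of 0.39 (SE 0.107, adjusted p = 0.51). clx-1, which encodes a collagen-like protein, had 11.16, 10.74 and 10.98 against 10.67, 9.85 and 9.44, and its difference of 0.62 had a 95% interval of −0.25 to 1.49. Without H3 2 replicate 3, the late array of H3 2, the difference of clx-1 was 0.088, and over all fits that leave out 1 array it was at most 0.89. Among genes lower than the control in that table, cpr-1 is described above. lys-4, a lysozyme gene, had 4.95, 5.4 and 5.03 against 5.47, 6.28 and 6.10, a difference of −0.80 (SE 0.256, adjusted p = 0.628). cyp-37B1, a cytochrome P450, differed by −0.56 (SE 0.147, adjusted p = 0.479).

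In families of the detoxification system, members were counted at an unadjusted p under 0.05, where 3.1% of all probe sets were higher and 3.57% lower. Of 75 cytochromes P450, 3 were higher and 3 lower, and cyp-33E3 (−0.66, SE 0.169) was among the lower ones at a level below the array medians. Of 48 glutathione S-transferases, 2 were higher and 1 lower. gst-42, a maleylacetoacetate isomerase, differed by 0.45 (SE 0.123) and gst-9 by 0.65 (SE 0.237), the latter with 1.03 in the early and 0.33 in the late arrays. Of 67 UDP-glucuronosyltransferases, 0 were higher and 1, ugt-13, lower (−0.46, SE 0.155). Of 53 ABC transporters, the export pump gene mrp-3 was higher (0.53, SE 0.146) and 0 were lower. Of 5 flavin-containing monooxygenases, fmo-3 was higher by 0.68 (SE 0.286), and it had 1.22 without the set term. Median steps of these families were between 0.01 and 0.05, except for −0.05 of the glutathione S-transferases. None of these genes had an adjusted p under 0.05.

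Stress and defence genes were counted in the same way. Of 11 small heat shock proteins, 1 (hsp-16.2) was lower and 0 higher, and of 39 HSP70 and DnaJ chaperones, 2 were higher, among them dnj-3 (0.37, SE 0.130), with a median of 0.10. Probe sets shared by several genes are not in these lists. Those of hsp-16.1 with hsp-16.11 and of hsp-16.48 with hsp-16.49 were higher than the control by 3.91 to 4.33 at H3 0.02. Their upper steps were 0.014 to 0.055. The probe set of F44E5.4 and F44E5.5 was higher by 3.51 at H3 0.02, and its upper step was −0.40. Of 19 metal response genes, 1, numr-1, was higher and 0 were lower. Of 247 C-type lectins, sugar-binding proteins of which many are secreted, 4 (1.62%) were higher and 13 (5.26%) lower, including clec-97 (−0.87, SE 0.196) and clec-51 (−0.77, SE 0.179). Of 30 antioxidant enzymes, 0 were higher and 1 lower, of 12 hypoxia and hydrogen sulfide genes 0 in either direction, and of 13 SKN-1 pathway genes 1 higher and 0 lower. Of 67 prion-like abu and pqn genes, 4 were higher, such as pqn-29 and pqn-31, and 0 lower. The difference of pqn-31 was 0.43, and 0.14 without H3 0.2 replicate 1. pqn-29 had 7.37, 6.63 and 4.52 against 6.15, 3.78 and 4.25, so that its groups overlapped, and it differed between the array sets by −2.41.

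Lists of digestion, lipid handling, energy supply and secreted proteins were counted at an unadjusted p under 0.05, with few members in each. Of 17 aspartyl proteases, 0 were higher and 0 lower, with a median of 0.01. Of 28 saposin-like proteins, 0 were higher and 3 lower, among them spp-14 (−0.58, SE 0.147). Of 16 lysozymes 2 were lower, of 12 cathepsin-type peptidases 1 was lower, and of 8 lysosomal lipases 2 were lower, including lipl-2 (−0.62, SE 0.229), each with 0 higher. Of 24 SCP-like proteins, 1 was higher and 4 lower, among them scl-3 (−0.75, SE 0.253). Of 16 fatty acid elongases and desaturases, elo-5 alone was lower and 0 were higher. elo-5, needed to make branched-chain fatty acids, had 5.54, 5.45 and 5.37 against 6.15, 6.00 and 6.05, a difference of −0.72 (SE 0.209, adjusted p = 0.555). Of 17 fatty acid and retinol binding proteins, far-8 (−0.60, SE 0.172) was 1 of 2 lower and 0 were higher, whereas of 61 fatty acid breakdown genes acdh-2 was higher by 0.90 (SE 0.352) and 0 were lower. Of 42 respiratory chain and ATP synthase genes, 3 were lower, such as asg-2 (−0.49, SE 0.121) and cox-6A (−0.39, SE 0.137), and 0 higher, with a median of −0.09. The difference of cox-6A was −0.74 in the early and −0.022 in the late arrays, and −0.22 without H3 0.2 replicate 1. Of 8 nspe genes, short nematode-specific peptides, 2 were lower, among them nspe-1 (−0.45, SE 0.173), with a median of −0.41 over genes that resemble one another in sequence. A list of 8 to 61 genes gives a coarse share beside 3.57%, the medians of the saposin-like (−0.01) and SCP-like (0.02) genes were close to 0, and no list was tested.

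Large families of receptors and regulators were counted in the same way, beside 3.1% of all probe sets higher and 3.57% lower. Of 271 nuclear hormone receptors, transcription factors that bind small lipophilic ligands, 9 (3.32%) were higher and 4 (1.48%) lower at an unadjusted p under 0.05, with a median step of 0.01. Of 296 F-box genes of the fbxa and fbxb families, whose products link substrates to ubiquitin ligases, 11 (3.72%) were higher and 11 (3.72%) lower. Of 197 chemoreceptor genes of the str and srr families, 9 (4.57%) were higher and 7 (3.55%) lower. Of 63 antimicrobial peptide genes 1 was higher and 1 lower, and of 37 pals genes, a family that responds to intracellular infection, 0 were higher and 1 lower. Housekeeping complexes differed little: of 75 cytosolic ribosomal protein genes 0 were higher and 2 lower, with a median of −0.06. Of 33 proteasome genes 0 were higher and 1 lower, and of 20 vacuolar ATPase genes 0 in either direction, with medians of −0.03 and 0.06.

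Cuticle collagens, sperm genes and germline markers differed between the array sets more than between the concentrations. In the fit, the late arrays were lower by a median of 0.95 for 169 cuticle collagens and of 0.97 for 32 sperm genes, and higher by 1.18 for 25 germline and oocyte markers. The median upper steps of these lists were −0.06, −0.22 and −0.08 with the set term and 0.28, 0.08 and −0.47 without it, so that the first 2 changed sign. Within the early arrays the medians were −0.13, −0.17 and −0.28, and within the late arrays 0.064, −0.33 and 0.11. The collagens and the germline markers thus had opposite directions in the array sets. Of the collagens, 2 (1.18%) were higher and 11 (6.51%) lower at an unadjusted p under 0.05, against 3.1% and 3.57% of all probe sets, among them col-143 (−1.02, SE 0.263), and of the sperm genes 0 were higher and 3 (9.38%) lower. The mean of the sperm genes ran from 4.36 to 5.52 over the arrays of H3 0.2. Of 17 intestine, 12 muscle, 12 pharynx and 17 neuron markers, 0 were higher and 0 lower, with median steps of −0.10, 0.00, −0.06 and 0.03. Their part in the results above was not tested.

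The upper step was also set against the lower one, from 0.02 to 0.2 mg/mL. In the same fit the lower step also had 2 called probe sets (0.00682%), T22D1.2 (3.89, adjusted p = 0.00224) and T22D1.21 (3.09, adjusted p = 0.000163). Both steps use the H3 0.2 arrays. A test of the difference between the steps called 0 of 29317 probe sets (0%) in limma, with 1511 at an unadjusted p under 0.05 and a smallest adjusted p of 0.24. By the least significant difference test it also called 0. For T22D1.2 the upper step was smaller by 2.4 (SE 0.66, adjusted p = 0.75) and for T22D1.21 by 1.1 (SE 0.40, adjusted p = 0.93). For numr-1 the steps were 0.95 and 0.89.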

How the data were processed

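Whole-worm RNA was measured on 15 Affymetrix Gene 1.0 ST arrays for C. elegans. The deposited log2 values of 29317 probe sets had been normalised by the authors with RMA and quantile normalisation in Partek, after quality checks in Affymetrix Expression Console; no version of these tools was found in the sources read. They were used without further scaling. Probe sets were named from the platform annotation and the WBcel235 gene table, with 5 named from the study's annotation: 25551 had 1 gene, 646 several and 3120 none, and all were tested. Models were fitted with limma 3.58.1 (R 4.3.3), and figures drawn with matplotlib 3.10.9 (Python 3.11.15).

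The array sets follow the order of the arrays in the study's table, cut where the first principal component splits. Group means and an array set term were fitted over the 15 arrays with lmFit, followed by eBayes (9 residual and 3.79 prior degrees of freedom) and Benjamini-Hochberg adjustment within each contrast. The comparison, its gene lists and the choice of this fit over the methods' model were made with earlier results of these data known, including that the methods' model called none and a fit with the array set called 2 probe sets. Lists took only probe sets of 1 gene, and per gene the probe set with the highest mean. Named genes were the called probe sets, the 12 highest and 12 lowest t in 1 direction in both sets with the higher group at or above the median of all values (3.59), hand-picked genes of the study's table of genes changed in all treated groups, and up to 4 members of each list by the size of t. T22D1.2, hsp-16.2 and other list members were named after their values were seen where several qualified. The script was tested on simulated data. The study states 3 biological replicates per group.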

Additional observations from a re-analysis of the deposited data

How the results depend on the processing

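The count of 2 probe sets called between H3 2 and H3 0.2 was 0 with the methods' model, with the least significant difference test, with only the 6 arrays (with or without the array set term), with early arrays only and with late arrays only. It was 1 with an intensity trend and 1 with only probe sets whose mean was at least 4, and it was 4 with a replicate block and no array set term, where both probe sets were among the 4. With the replicate block together with the array set term it was 2, of which 1 was the same, and leaving out 1 array gave 0 to 3. Deviations of same-numbered arrays of H3 2 and H3 0.2 from their group means correlated at 0.54, −0.51 and 0.35 with the array set left in. Arrays of different number correlated at −0.75 to 0.68. Residuals of the fit with the set term correlated at −0.20, 0.022 and −0.14 for the same number and at −0.077 to 0.26 for different numbers. The replicate numbers were not taken to pair the arrays in the fit reported, but so few arrays cannot exclude such a pairing. Without H3 0.2 replicate 3 and RE replicate 3 together, an alternative chosen after seeing the data, the count of called probe sets was 0. Fits of the early, the late or the 6 arrays hold fewer arrays; the cause of the other changes was not tested. The 1957 probe sets at an unadjusted p under 0.05 became 1216 with the methods' model, 841 with only the 6 arrays and no set term, 1227 with late arrays only and 967 with only probe sets of a mean of at least 4, where fewer were tested. They became 2493 with early arrays only, of which 773 were shared, 2271 with the replicate block and the set term, 2130 with the replicate block alone, and 1584 to 2177 when 1 array was left out.

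The count for upper minus lower step was 0 in all alternatives that could be fitted, and with only the 6 arrays it could not be fitted because H3 0.02 is needed. The median step of probe sets called higher at H3 0.02 was 0.39 with only the 6 arrays and no set term, 0.18 in the early and 0.011 in the late arrays, and 0.027 to 0.15 when 1 array was left out. That of the lower ones was −0.059 with the methods' model, −0.055 with only the 6 arrays, −0.10 without H3 0.2 replicate 3 and RE replicate 3, and −0.28 to −0.11 when 1 array was left out. For probe sets called higher for RE it was 0.44 with only the 6 arrays, 0.22 in the early and 0.043 in the late arrays, and 0.065 to 0.20 when 1 array was left out. For the lower ones it was −0.059 with the methods' model, −0.055 with only the 6 arrays, and −0.22 to −0.11 when 1 array was left out. The lowest and highest of these came without an H3 0.2 array, H3 2 replicate 3 or control replicate 3. The choice of probe sets was refitted in the fits over all groups and kept for the early, late and 6 arrays.

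Of 56 named genes, lys-1 changed direction, to 0.039 in the 4 fits without the set as a term or block (methods' model, least significant difference test, 6 arrays, replicate block). Y38H6A.1 was called in 4 settings, comt-5 without H3 0.02 replicate 1, and hsp-16.2 without H3 0.2 replicate 2.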

Other observations

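Probe sets without a gene name in the annotation used here held most of the large decreases. Of the 126 probe sets at least 2-fold lower at H3 2, 96 had no gene, 17 had 1 gene and 13 had several, although probe sets without a gene made up 10.6% of all. Over all 3120 of them, 223 (7.15%) were lower and 106 (3.4%) higher at an unadjusted p under 0.05, with a median step of −0.04, and none passed the test (smallest adjusted p 0.105). The mean over the 96 was 4.74, 5.92 and 6.00 on the H3 2 arrays and 6.82, 6.96 and 7.17 on the H3 0.2 arrays, whereas it was 6.87 to 7.35 in the control and 5.95 to 7.38 for RE. These 96 were chosen by this contrast, 18 of them share all values with another probe set, and what they detect is not given in the sources used here.

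Among probe sets of several genes, those of pud-1.1 and pud-1.2 and those of pud-2.1 and pud-2.2 were lower at H3 2. They were lower by 1.11 to 1.16 on the log2 scale, with overlapping groups. The related pud-4 and pud-3, each with a probe set of its own, differed by −1.28 and −0.38. The median of pud-4 and pud-3 was −0.16 in the early and −1.35 in the late arrays. The 2 probe sets shared by H12D21.3 and ZC412.8, which have identical values, were higher by 1.2 (adjusted p = 0.12 by limma).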
